A study of Mus musculus with 20 samples.

Results

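The comparison set mouse nephron progenitor cells (NPCs) that received guide RNAs against Ctnnb1, the β-catenin gene, against NPCs that received guides against other adhesion genes, with both kinds of cell cultured in the inducing dose of the GSK3 inhibitor CHIR. It used 7 of the 20 bulk RNA-seq libraries of the study: 3 labelled β-catenin KO and 4 of adhesion KO, the latter joining 2 libraries labelled α-catenin KO and 2 with guides to 4 classical cadherins (QCKO). Membership followed the knockout and the dose in the sample labels alone. The question was which transcripts differ when the gene targeted serves both Wnt signalling and adhesion rather than adhesion alone. The labels were not checked on Ctnnb1 itself, whose level was not analysed here. The Wnt targets Axin2 and Notum were low in β-catenin KO replicate 1 and above every adhesion KO library in replicates 2 and 3, so the name β-catenin KO stands below for the label and not for a measured loss.

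All cells were primary NPCs from the kidneys of Cas9-eGFP mice, so every group carried Cas9 and eGFP. The groups differed in the guide RNAs they received: Ctnnb1 guides (β-catenin KO), a Ctnna1 guide (α-catenin KO), or guides to Cdh2, Cdh3, Cdh4 and Cdh11 together (QCKO). CTRL cells received a GFP guide and were cultured in the same way. Their libraries serve below as reference levels and for the response to CHIR, and they enter the spread that the fit shares over all groups. High CHIR was 5 μM and low CHIR, which maintains progenitors, was 1.25 μM. Cells were transfected with guides and mCherry mRNA, given 48 h for the knockout, moved to the CHIR condition and sorted for fluorescence, so each library holds a mixed pool of edited alleles and not a clone. Replicate numbers follow a date in the sample labels. β-catenin KO and CTRL had replicates 1, 2 and 3, α-catenin KO had 1 and 3, and QCKO had 2 and 3. The labels do not say whether replicates came from separate animals, so the p-values measure the spread between these libraries. The age of the animals was not in the labels, and the paper states that the NPCs came from mouse embryos. For knockout experiments, the paper names crosses of the Cas9-EGFP line with SWR/J mice among the matings used.

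β-catenin, encoded by Ctnnb1, has a pair of roles. At the membrane it links cadherins to α-catenin and through it to the actin cytoskeleton, and in the nucleus it binds TCF/LEF factors and activates Wnt target genes. GSK3 marks β-catenin for destruction, so an inhibitor of GSK3 raises it in place of a Wnt ligand. In the developing kidney, NPCs self-renew under factors such as Six2 and Cited1, and stronger Wnt signalling turns on Wnt4, Lef1, Jag1 and Lhx1 as the cells aggregate and become epithelial.

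The guides define the arms of the comparison, and those to Ctnna1 and Cdh2 are not reported here. The guides shown are written 5′ to 3′ as the study's reagent table gives them, in DNA letters for Ctnnb1 and RNA letters for the cadherins, without a PAM, and no capitals are used.
Ctnnb1 sgRNA1, named for exon 2: atgagcagcgtcaaactgcg
Ctnnb1 sgRNA3, named for exon 3: agccaagcgctggacattag
Ctnnb1 sgRNA5, named for exon 3: gagattatgcagtgtcgtga
Cdh3: ccgaugaagcccgcucggua
Cdh4: ccauccccaggcccaccgug
Cdh11: caccagcacagggucaggcc
The table gives Ctnnb1 sgRNA6, named for exon 6, the same letters as sgRNA5, so the exon of that guide could not be settled. Which of the Ctnnb1 guides went into these libraries was not given in the sources used here.

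Read totals recovered from the deposited values ran from 18124772 to 24679361 in the 7 libraries. Of 31130 genes, the 16691 that averaged 10 or more normalized counts across the 20 libraries were tested. Gene symbols were available for 3939 of these. Since the symbols come from the authors' tables of differing genes, named genes are not a random sample of those tested. Ctnnb1 itself had no identifier in them.

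One β-catenin KO library stood apart before any comparison was made. On the first principal component of the 7 libraries, which held 58.2% of the variance of the 500 most variable genes, replicates 1, 2 and 3 of β-catenin KO lay at 53.3, 26.1 and 31.6, and the 4 adhesion KO libraries lay between -33.8 and -15.9. On the second component, with 26.4% of the variance, β-catenin KO replicate 1 lay at 39.8 and the other two at -30.5 and -28.9. α-catenin KO replicate 1, which shares its date label, lay at -15.9 on the first component and 12.9 on the second. The other adhesion KO libraries lay at 0.89 to 4.71 on the second. The main counts are given below with and without this library, as are the named genes whose call or size it decides.

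**Figure D1:**
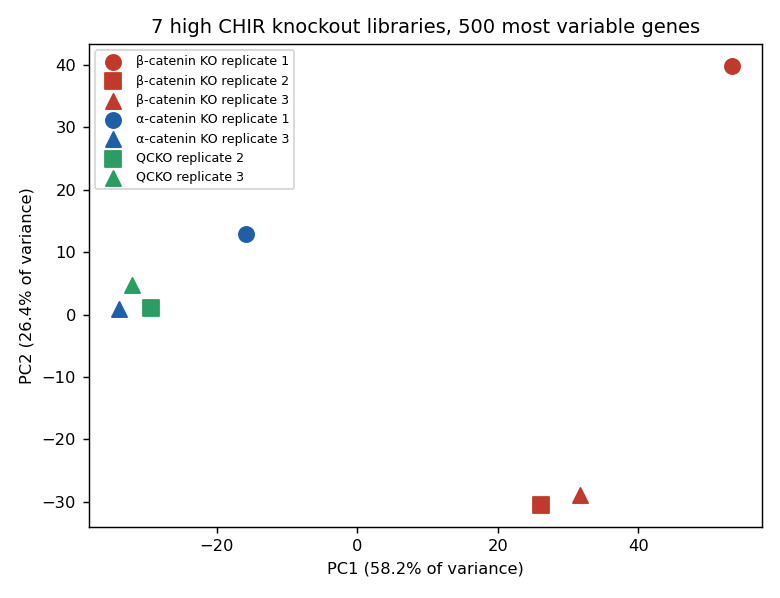
First and second principal component of the 7 high CHIR knockout libraries (log2(normalized count + 1), 500 most variable genes), with colour for the knockout and marker shape for the replicate. The 3 β-catenin KO libraries lie to the right of the 4 adhesion KO libraries, and β-catenin KO replicate 1 lies apart from the other two on the second component.

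The CTRL libraries gave a scale for this spread. Between low and high CHIR, 716 genes were higher and 1077 lower in CTRL cells. A library's position was set at 0 at the CTRL low CHIR mean and at 100 at the CTRL high CHIR mean of each gene, so CTRL lies at the ends by construction. Over the 716 genes that CHIR raised, the median position was 12.4 in β-catenin KO replicate 1, 53 in replicate 2 and 47.0 in replicate 3, against 91.2 to 94.6 in the adhesion KO libraries. Over the 1077 genes that CHIR lowered, it was 6.27, 25.5 and 23.3 in β-catenin KO against 72.0 to 76.9 in the adhesion KO libraries. β-catenin KO replicate 1 thus lay near the low CHIR end on both sets. Replicates 2 and 3 lay near the middle on the raised genes and nearer the low CHIR end on the lowered ones.

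In high CHIR, 962 genes differed between β-catenin KO and adhesion KO, 5.76% of those tested (limma, with adjusted p below 0.05 and more than 0.5 log2 units apart). Of these, 677 were higher in β-catenin KO (4.06%) and 285 were lower (1.71%). With quantile normalization the split was 577 higher and 398 lower, so the share of higher genes went from 70.4% to 59.2%. With the date in the labels as a block, 1798 genes were called, 10.8% of those tested, 959 of the 962 among them, and DESeq2 called 1537 (9.21%). Without β-catenin KO replicate 1, 421 genes were higher (2.52%) and 75 lower (0.449%), with 419 of the 962 called again. The lower set thus shrank more than the higher set when that library was left out.

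The called differences were seen on every date. Of the 677 higher genes, 656 had all 3 β-catenin KO libraries above all 4 adhesion KO libraries, a pattern of 12.0% of tested genes. Of the 285 lower genes, 279 had all 3 below all 4, against 11.2% of tested genes. All 4 pairs of libraries that share a date differed in the called direction for 670 of the 677 and for 284 of the 285, and 41.8% of tested genes had all 4 pairs on one side. These counts describe the calls and use the same libraries as the test.

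The higher set was mostly made of genes that CHIR lowered in CTRL cells. That contrast shares no library with this one, but both use the same fitted spread of each gene, so their calls are not independent. Of the 677 genes higher in β-catenin KO, 372 (54.9%) were among the 1077 that CHIR lowered in CTRL, which is 34.5% of that list, and 3 were among the 716 that CHIR raised. By background, 6.45% of tested genes were lowered by CHIR in CTRL and 4.29% were raised. Of the 285 genes lower in β-catenin KO, 170 (59.6%) were among the 716 that CHIR raised, 23.7% of that list, and 1 was among the lowered genes. Without β-catenin KO replicate 1, the shares were 238 of 421 higher genes (56.5%) and 57 of 75 lower genes (76.0%). With all libraries, the remaining 302 higher genes (44.6%) and 114 lower genes (40.0%) were not called between the CTRL doses.

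The adhesion genes that the guides targeted were examined next. Ctnna1, which encodes α-catenin, had 3564 and 3621 normalized counts in the α-catenin KO libraries. It had 8915 and 9631 in QCKO and 8983, 8756 and 9144 in β-catenin KO. Its level in α-catenin KO was thus below that in every other library of the 7. The joined adhesion KO arm was therefore lower, with Ctnna1 called higher in β-catenin KO by 0.63 on the log2 scale (adjusted p = 0.022, and 0.083 without β-catenin KO replicate 1). Cdh11, a mesenchymal cadherin, had 1005 and 589 in QCKO, 2008 and 1443 in α-catenin KO, and 4169, 2427 and 3551 in β-catenin KO. It was higher in β-catenin KO than in adhesion KO by 1.53 on the log2 scale (SE 0.27, adjusted p = 0.0031), and all 3 libraries lay above all 4. Taken apart, the difference was 2.1 from QCKO, where Cdh11 is a guide target (adjusted p = 0.0014), and 0.95 from α-catenin KO, which did not pass (adjusted p = 0.16).

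Cdh4 and Cdh3, cadherins that rise as NPCs are induced, went the other way. Cdh4 (R-cadherin) had 1991, 4390.1 and 2879.6 in β-catenin KO, 8427 and 8147 in α-catenin KO, and 10276 and 6666 in QCKO. It was lower in β-catenin KO by a log2 fold change of -1.50 (SE 0.28, adjusted p = 0.0046), and by -1.22 (adjusted p = 0.035) without replicate 1. Cdh3 (P-cadherin) had 464, 2093 and 2034 in β-catenin KO and 3347 to 5497 in adhesion KO, with a log2 fold change of -1.64 that did not pass the test (adjusted p = 0.089). Without replicate 1 its value was -0.92 (adjusted p = 0.47), and with the date as a block it did pass (adjusted p = 0.0084). Cdh2 (N-cadherin) had 2869.7, 2258 and 1864 in β-catenin KO, which overlap the 1222 to 2190.4 of adhesion KO (log2 fold change 0.63, adjusted p = 0.34). For single genes, the two-sided exact permutation test of 3 against 4 libraries cannot go below p = 0.0571. It gave that smallest value for Cdh3, Cdh4 and Cdh11, 0.114 for Cdh2 and 0.457 for Ctnna1. The guides of QCKO target these cadherins, so their levels there were set against the CTRL libraries in high CHIR. Cdh11 in QCKO lay below the 1883 to 2092 of CTRL. Cdh3 lay within the 2557 to 3719.8 of CTRL, and Cdh4 lay on both sides of the 7647 to 8839.6 of CTRL, so neither transcript was lower in both QCKO libraries.

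Most tested genes of progenitor self-renewal were higher in β-catenin KO. Gene lists could be examined through the 3939 tested genes with a symbol, of which 626 were called (15.9%), 426 higher (10.8%) and 200 lower (5.08%), and the counts of all lists below are to be read against these shares. Of 20 genes on the list, which was chosen with earlier results of these data known, 12 had an identifier and were tested. Of these, 9 were higher and 1 lower. The median log2 fold change was 2.96, against 0.0691 over tested genes with a symbol and 0.0027 over all tested genes. All 9 were higher without β-catenin KO replicate 1 as well, where the median was 2.67. Six2, a homeodomain factor that maintains the progenitor state, had 798, 409 and 467 normalized counts in β-catenin KO, 41.2 and 63.5 in α-catenin KO, and 27.8 and 44.0 in QCKO. The groups were far from overlapping, at 558 ± 209.9 (SD, n = 3) against 44.1 ± 14.8 (SD, n = 4), a log2 fold change of 3.63 (SE 0.27, adjusted p = 7.9e-07). CTRL libraries had 64.1 to 83.8 in high CHIR and 943 to 1642 in low CHIR, so Six2 in β-catenin KO lay between these ranges.

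Osr1, a zinc-finger factor of the early kidney mesenchyme, had 1686, 624 and 680 in β-catenin KO and 33.3 to 64.4 in adhesion KO (log2 fold change 4.24, SE 0.34, adjusted p = 2.1e-06). Meox2, a mesodermal homeobox factor, had 2233, 649 and 953 against 13.3 to 30.9 (log2 fold change 5.84, SE 0.50, adjusted p = 4.8e-06). Crym, which encodes a thyroid hormone-binding crystallin, had 4979, 2534 and 3507 against 87.9 to 216 (log2 fold change 4.82, SE 0.28, adjusted p = 8.7e-08). In each of these genes replicate 1 was the highest β-catenin KO library, and the lowest β-catenin KO library was still above every adhesion KO library. For Crym, replicate 3 lay within the 2743 to 3625 of CTRL in low CHIR, replicate 1 above it and replicate 2 below it.

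The other called members had smaller or similar differences. Cited1, a transcriptional co-regulator restricted to progenitors, had 2583, 1188 and 2012 against 339.9 to 426 (log2 fold change 2.30, adjusted p = 0.00053). Eya1, a phosphatase and partner of Six2, had 2308, 1658 and 1327 against 364 to 873 (log2 fold change 1.61, adjusted p = 0.0044). Wt1, a zinc-finger factor needed for kidney formation, had 684, 519 and 788 against 164 to 235 (log2 fold change 1.72, adjusted p = 2.6e-05). None of these ranges overlapped. Foxc2 and Tmem100 were higher by 3.97 and 3.67 on the log2 scale (adjusted p = 7.3e-05 for both). Six2, Cited1, Wt1 and Eya1 were named after their values were seen, as were the genes of the lists below that did not pass the test.

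Pax2 was the member that was lower. This paired-box factor is kept on as progenitors are induced, and it had 192, 479.9 and 441 in β-catenin KO and 1033 to 1181 in adhesion KO (log2 fold change -1.67, SE 0.39, adjusted p = 0.018). Without replicate 1 it did not pass (-1.25, adjusted p = 0.12). Hoxc10 and Uncx did not pass the test, at log2 fold changes of 0.35 and -0.93.

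**Figure D2:**
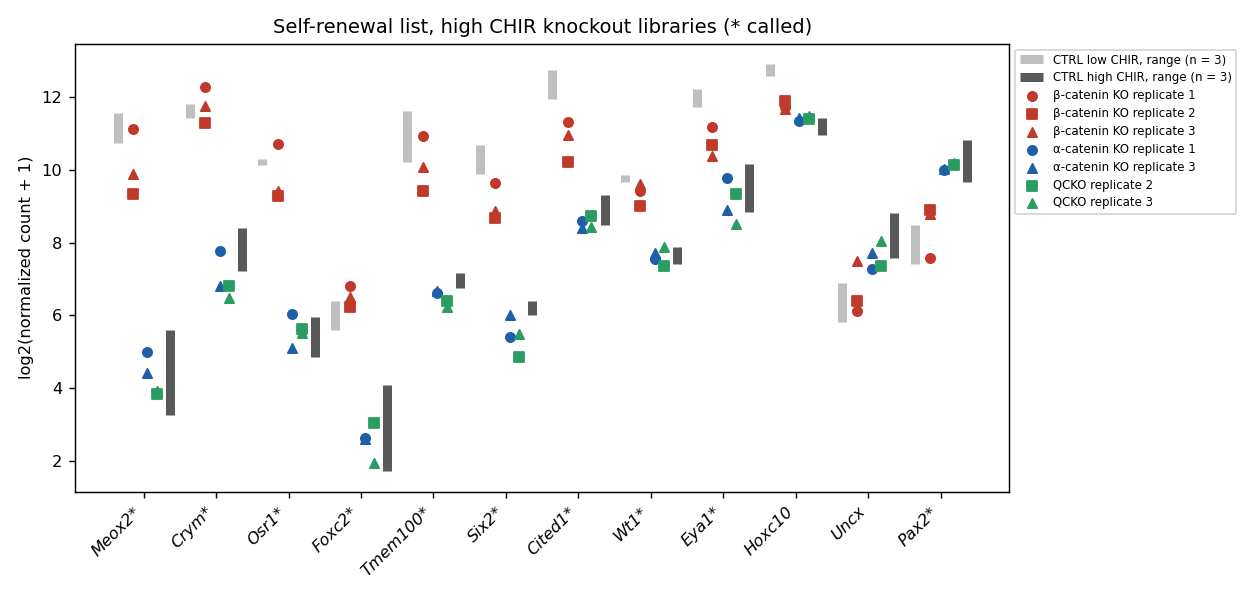
log2(normalized count + 1) of the 12 tested genes of the self-renewal list (horizontal axis) in each of the 7 high CHIR knockout libraries (points), beside the range of the 3 CTRL libraries in low CHIR (light bar) and in high CHIR (dark bar); an asterisk marks a called gene. Six2 lies between 409 and 798 normalized counts in β-catenin KO and between 27.8 and 63.5 in adhesion KO.

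Most genes of the induction programme were lower in β-catenin KO by value but did not pass the test, and replicate 1 was far below the other two. Of 24 genes, 12 were tested, and 1 was higher (Bmper) and 1 lower (Cdh4). Their median log2 fold change was -1.66, and -1.10 without replicate 1. All 3 β-catenin KO libraries were below all 4 adhesion KO libraries for 8 of the 12. The same held for 646 of the 3939 tested genes with a symbol and for 11.2% of all tested genes. Wnt4, the Wnt ligand that drives the conversion to epithelium, had 252, 2387 and 1200.4 in β-catenin KO and 4798 to 5849 in adhesion KO. CTRL had 4156 to 5401 in high CHIR and 41.1 to 72.6 in low CHIR. All 3 β-catenin KO libraries were therefore below every adhesion KO library and above every CTRL low CHIR library, with a log2 fold change of -2.58 (SE 0.88, adjusted p = 0.10) and of -1.66 without replicate 1 (adjusted p = 0.47).

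Lef1, Jag1 and Lhx1, which are induced along with Wnt4, were also lower by value. Lef1, a TCF/LEF factor that is itself a Wnt target, had 93.6, 677 and 1020 against 1204 to 1493 (log2 fold change -1.68, adjusted p = 0.21). Jag1, a Notch ligand, had 906, 2293 and 4279 against 4024 to 10563 (-1.64, adjusted p = 0.27). Lhx1, a LIM homeobox factor of the renal vesicle, had 183, 601 and 992 against 1217 to 2772 (-1.85, adjusted p = 0.35). Replicate 1 was the lowest library for each, and of these genes Jag1 alone overlapped between the groups. Without it, the log2 fold changes were -0.63 for Lef1, -1.04 for Jag1 and -1.16 for Lhx1 (adjusted p = 0.80, 0.72 and 0.79). With the date as a block, Wnt4 passed (adjusted p = 0.021) and Lef1, Jag1 and Lhx1 did not (adjusted p = 0.12, 0.06 and 0.19). Emx2, Ovol1 and Greb1 passed with the block (adjusted p = 0.0094, 0.0028 and 0.022) and not without it, and without replicate 1 they stood at -1.69, -1.57 and -1.27 (adjusted p = 0.61, 0.38 and 0.57). Bmper, a secreted BMP modulator that CHIR lowered in CTRL cells, had 9068, 3936 and 3611 against 405 to 1047 (log2 fold change 2.99, SE 0.39, adjusted p = 0.00022).

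Direct Wnt feedback genes also split the β-catenin KO libraries. Axin2, a negative regulator and common reporter of the pathway, had 18.5, 743 and 687 normalized counts in β-catenin KO, 413 and 490.1 in α-catenin KO, and 575 and 549.9 in QCKO. Notum, a secreted Wnt deacylase, had 4.62, 407 and 578 against 211 to 392. Sp5, a zinc-finger target of β-catenin, had 1.16, 68.7 and 88.5 against 32.6 to 82.3. Replicate 1 was at or below the level of CTRL in low CHIR for Axin2 (39.3 to 71.5) and within it for Notum (3.57 to 6.5), and replicates 2 and 3 were above every adhesion KO library for Axin2 and Notum.

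None of these 3 genes passed the test, with adjusted p = 0.64, 0.73 and 0.73. Their log2 fold changes of -1.23, -1.37 and -1.14 turned to 0.50, 0.77 and 0.60 without replicate 1, again short of the threshold. Of the 8 tested members of the Wnt feedback and target list, 1 was called, Tcf7l1, which encodes a TCF factor that mainly represses and was higher at 2302, 1297 and 1486 against 598 to 765 (log2 fold change 1.31, adjusted p = 0.0014). Krt23, a keratin that CHIR raised in CTRL cells from at most 2.12 to between 148 and 577, had 20.8, 2679.9 and 3495 in β-catenin KO against 596 to 1756 (log2 fold change -0.69, adjusted p = 0.90). The list was not examined in full, since 8 of its 24 genes had an identifier.

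The split was not limited to high CHIR. In low CHIR, Axin2 had 14, 559.7 and 384 in β-catenin KO replicates 1, 2 and 3 and 42.2 to 74.6 in adhesion KO. Notum had 1.07, 562 and 325 against 1.7 to 2.6, and Lef1 had 62.3, 659.7 and 532 against 58.1 to 81.7. For Axin2 and Notum, replicates 2 and 3 of β-catenin KO were thus above every adhesion KO library at both doses and replicate 1 at neither. What sets these libraries apart was not tested.

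**Figure D3:**
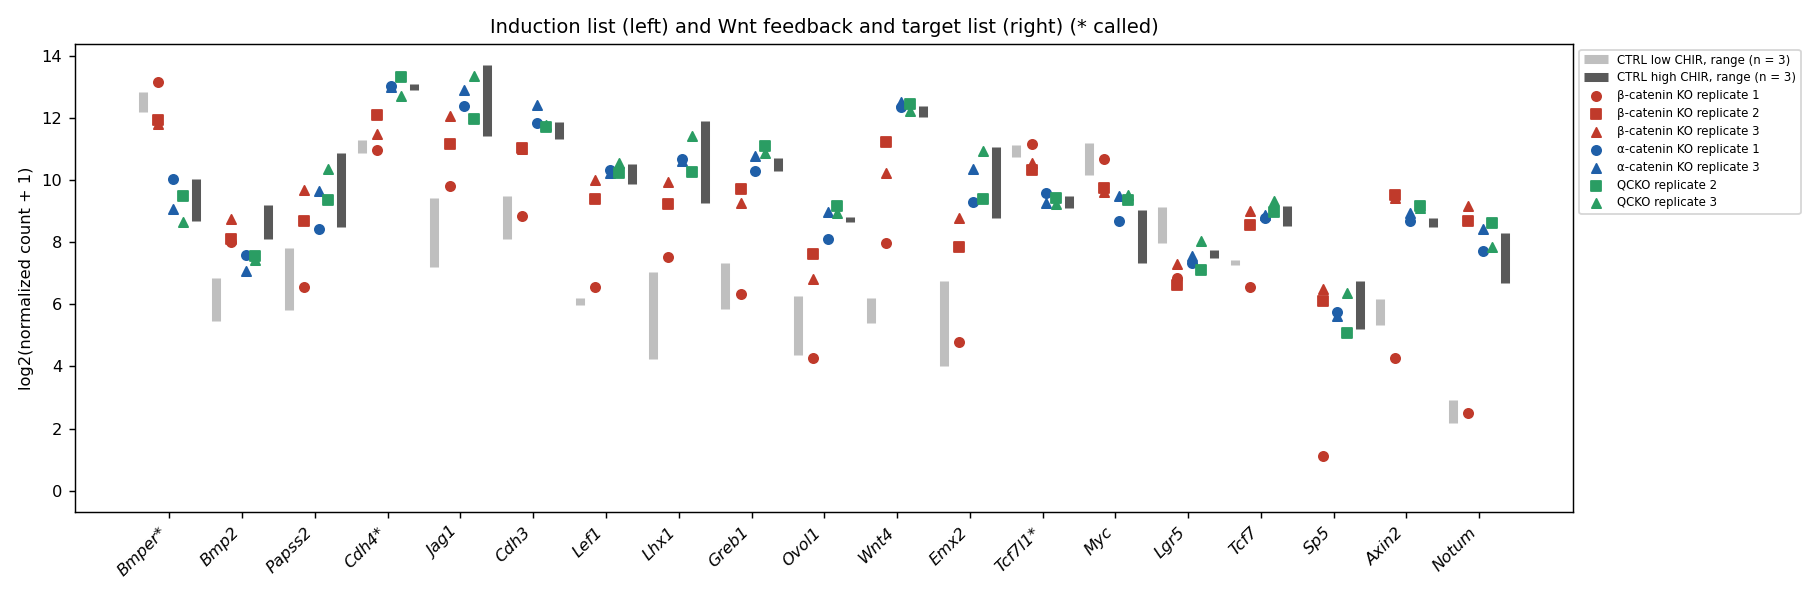
log2(normalized count + 1) of the 12 tested genes of the induction list (Bmper to Emx2) and the further 7 of the Wnt feedback and target list (Tcf7l1 to Notum) in the 7 high CHIR knockout libraries (points), beside the CTRL ranges in low (light bar) and high CHIR (dark bar); an asterisk marks a called gene. For Axin2, β-catenin KO replicate 1 lies at 18.5 normalized counts, while replicates 2 and 3 lie at 743 and 687, above the 413 to 575 of adhesion KO.

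Among 38 Wnt ligands and receptors, 13 were tested, of which 3 were higher and 2 lower, with a median log2 fold change of 0.34. Fzd4, a Frizzled receptor, had 990.1, 421 and 900.3 in β-catenin KO and 50.7 to 119 in adhesion KO (log2 fold change 3.06, adjusted p = 0.00011). Rspo1, a secreted enhancer of Wnt signalling, had 154, 83.1 and 109 against 5.15 to 31.4 (3.14, adjusted p = 0.0049). Fzd8 was higher by 2.0 at low levels, 18.2 to 26.6 against 1.29 to 9.35. Wnt5b, a noncanonical Wnt ligand, was lower by -0.91 (adjusted p = 0.047), with 101, 143 and 175 against 183 to 295. Fzd3, a Frizzled receptor, was the other lower gene, at -0.55. Fzd10 had 4.62, 187 and 317 against 42.5 to 55.5, so replicates 2 and 3 were above all adhesion KO libraries and replicate 1 was below them (log2 fold change 0.50, adjusted p = 0.90, and 2.32 without replicate 1, adjusted p = 0.43). Without replicate 1, Fzd8, Wnt5b and Fzd3 were no longer called.

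Of 6 tested genes for FGF and GDNF signalling, 3 were called, all higher, with a median of 1.58 on the log2 scale. Fgf1 had 1222, 832 and 1625 in β-catenin KO and 28.3 to 95.4 in adhesion KO (log2 fold change 4.77, SE 0.42, adjusted p = 4.8e-06), and CTRL fell from 1077 to 2842 in low CHIR to between 14.7 and 21.4 in high CHIR. Etv1, an ETS factor downstream of FGF and GDNF signals, was higher by 2.63 (adjusted p = 7.7e-05), and Gas1, a surface co-receptor of hedgehog and GDNF signalling, by 2.31 (adjusted p = 0.00039). Both were also called without replicate 1.

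In retinoid metabolism, opposite changes were measured. Rdh10, which makes retinaldehyde from retinol, had 1302, 1019 and 1677 in β-catenin KO and 49.5 to 97.3 in adhesion KO (log2 fold change 4.06, SE 0.28, adjusted p = 6.1e-07). Aldh1a3, which turns retinaldehyde into retinoic acid, had 529, 1859.8 and 1755 against 5235 to 12825 (-2.67, SE 0.66, adjusted p = 0.023). Crabp2, which carries retinoic acid to the nucleus, was lower by -2.32 (adjusted p = 0.049), with 152, 741 and 231 against 631 to 2659.8. Crabp2 overlapped between the groups, and neither lower gene was called without replicate 1, with Aldh1a3 at -2.08 (adjusted p = 0.15). Rara, a retinoic acid receptor, did not pass (0.72, adjusted p = 0.18).

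Matrix genes and genes of the mesenchymal state were higher where they were called. Of 14 tested matrix and integrin genes, 5 were higher and none lower, with a median of 0.89. Tnc (tenascin-C) had 5120.2, 2630 and 3347 against 281 to 382 (log2 fold change 3.40, adjusted p = 0.00021). Nid2, a basement membrane linker, was higher by 2.61 (adjusted p = 0.0044), and Col9a1, a collagen chain, by 4.65 from 0 to 6.44 normalized counts in adhesion KO to 46.2, 112 and 39.0. Itga9 and Itgb5, integrin subunits, were higher by 1.16 and 1.07. Of 5 mesenchymal genes, Zeb1 and Snai2, repressors of epithelial genes, were higher by 2.56 and 1.56 and Sparc, a matrix glycoprotein, by 1.16, whereas Vim (vimentin) and Snai1 did not pass at -0.11 and -0.77. Itgb5 and Snai2 were not called without replicate 1.

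Of 6 tested genes of epithelial junctions and polarity, 1 was called. Patj, a scaffold of the Crumbs polarity complex, was lower by -0.85 (adjusted p = 0.027), with 248, 439 and 361 in β-catenin KO and 442 to 742 in adhesion KO. The other 5 had log2 fold changes from -2.73 (Marveld2, adjusted p = 0.071) to -0.69 (Krt23). Without replicate 1, Patj was not called, Marveld2 stood at -1.59 (adjusted p = 0.40) and Krt23 turned to 1.69, and Krt23 was also above 0 by edgeR (1.03) and DESeq2 (1.02).

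Guidance genes moved both ways. Of 9 tested, Robo2, a Slit receptor, had 2787, 1453 and 1696 against 278 to 648 (log2 fold change 2.33, adjusted p = 0.001). Its relative Robo1 had 463, 911 and 889 against 1485 to 2301 (-1.30, adjusted p = 0.0073), and their ligand Slit2 had 438, 935 and 849 against 1475 to 2185 (-1.41, adjusted p = 0.0017). The receptors of this pair therefore differed in opposite directions, and none of these ranges overlapped. Plxna2, a semaphorin co-receptor, and Efnb1, an ephrin, were higher by 1.92 and 1.38. Without replicate 1, Robo1 missed the threshold (-0.98, adjusted p = 0.051).

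In the Notch list, 2 of 7 tested genes were called, both higher. Hes1, a repressor downstream of Notch, had 463, 543 and 723 in β-catenin KO and 168 to 233 in adhesion KO (log2 fold change 1.52, adjusted p = 0.00073). Maml2, a Notch co-activator, had 889.6, 719 and 966 against 260.2 to 339 (1.44, adjusted p = 0.00047). Jag1 and Jag2, the ligands measured, did not pass, and Jag2 stood at -0.91 with and -0.08 without replicate 1. In the BMP and TGF-β list of 11 tested genes, Tgfb2, a TGF-β ligand, was higher by 1.20 (adjusted p = 0.0039). Bmper, described above, was the other higher gene, and Id2, a BMP-responsive inhibitor of bHLH factors, was lower by -0.83 (adjusted p = 0.035, and 0.23 without replicate 1).

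Survival and stress genes were largely not called. Bcl2, an inhibitor of apoptosis, had 1064, 1071 and 1844 against 202 to 256 (log2 fold change 2.45, SE 0.21, adjusted p = 4.8e-06), and it was the 1 called gene of 7 tested apoptosis regulators. Of 9 tested p53 response genes, Ccng1 (cyclin G1) was called, at 0.81 (adjusted p = 0.017, and 0.067 without replicate 1). Cdkn1a, the p21 cell cycle inhibitor, had 2373, 10747 and 9876 in β-catenin KO and 2643 to 4558 in adhesion KO. Replicates 2 and 3 were thus above and replicate 1 below all adhesion KO libraries (log2 fold change 0.84, adjusted p = 0.41, and 1.54 without replicate 1, adjusted p = 0.088). Of the 4 tested proliferation genes 0 were called, with log2 fold changes from -0.58 (Ccnd2) to 0.75 (Myc).

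Of 3 tested interferon response genes, Irf7, a regulator of type I interferon, was lower, with 43.9, 37.7 and 11.3 against 104 to 165 (log2 fold change -2.31, adjusted p = 0.0039). Of 8 YAP and SRF targets, 2 were higher. Tpm1 (tropomyosin) had 11249, 5447 and 6908 against 1583 to 3611 (1.75, adjusted p = 7.7e-05), and Axl, a receptor tyrosine kinase, was higher by 1.53 (adjusted p = 0.02, and 0.13 without replicate 1).

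Markers of other kidney cell types were checked as far as identifiers allowed. Of 13 ureteric markers, 5 had one. Their summed level was 476 to 956 in β-catenin KO and 993 to 1776 in adhesion KO, and Hoxb7 was lower by -0.94 (adjusted p = 0.029, and 0.18 without replicate 1). The endothelial list had 1 of 8 genes, Tek, an angiopoietin receptor, which had 4.62, 85.3 and 46.8 against 92.7 to 383 and was lower by -3.02 (adjusted p = 0.027), and by -1.85 without replicate 1 (adjusted p = 0.15). CTRL had 0 to 3.25 of Tek in low CHIR and 89.7 to 177 in high CHIR. The podocyte list also had 1 of 8, Clic5, a chloride channel protein, with 155, 89.8 and 127 against 2.41 to 25.8 (3.22, adjusted p = 0.0029). The stroma list had 1 of 10, Meis1, at 537 to 921 against 890.3 to 1094. The leukocyte and tubule lists had none. In bulk RNA, fewer cells of a type and less RNA per cell cannot be told apart, and the part of other cell types in these differences was not tested.

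Beyond the lists, the largest differences were picked among called, named genes that averaged 100 or more normalized counts and did not overlap between the groups. Tafa4, a secreted chemokine-like protein, had 513, 199 and 259 in β-catenin KO and 0 to 1.21 in adhesion KO. The counts behind these values were 923 reads in 3 libraries and 2 reads in 4, a ratio of 579 with a 95% counting interval from 160.0 to 4790.0, which covers counting error only. Ch25h, which makes 25-hydroxycholesterol, had 1359.8, 529.8 and 587 against 2.02 to 21.9 (log2 fold change 6.49, SE 0.73, adjusted p = 7e-05). Nell1, a secreted EGF-repeat protein, had 1374, 1230.2 and 2042 against 9.66 to 69.6 (6.13, SE 0.45, adjusted p = 7.9e-07). These 3 genes were low in CTRL in high CHIR too, at no more than 3.92, 12.8 and 98.7.

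Among the other 12 of the 15 largest higher genes were Dkk2, a secreted modulator of Wnt receptors, Hpgd, which degrades prostaglandins, Il33, an alarmin cytokine, and Rgs4, a regulator of G-protein signalling. Dkk2 had 1114, 565 and 677 against 9.08 to 33.5 (5.41, adjusted p = 2.2e-05), and Hpgd had 1099, 704 and 842 against 14.1 to 36.2 (5.39, adjusted p = 3.1e-07). Il33 had 990.1, 1136 and 1411 against 11.1 to 16.9 in 3 adhesion KO libraries and 313 in α-catenin KO replicate 1. Rgs4 was higher by 4.43 and Olfml2a by 4.91. Tgtp1 and Tgtp2, interferon-inducible GTPases, were higher by 5.75 and 6.03. They are near-identical neighbours that can share reads, so their separate values are uncertain. CJ186046Rik was higher by 6.06. Nxph1, a neurexin ligand, had 991, 37.7 and 132 against 0 to 9.02, and of the 15 it was the one not called without replicate 1 (5.86 with it and 4.6 without, adjusted p = 0.059). Meox2, Crym and Fgf1, described above, complete the 15.

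Large lower genes were picked by the same rule, and 14 of them are given. Adgrg2, an adhesion G-protein-coupled receptor, had 72.8, 301 and 163 in β-catenin KO and 1421 to 1792 in adhesion KO (log2 fold change -3.43, SE 0.60, adjusted p = 0.0027). Vegfc, a lymphangiogenic growth factor, had 16.2, 167 and 72.0 against 544 to 702 (-3.43, adjusted p = 0.0026, and -2.53 without replicate 1). Ntsr2, a neurotensin receptor, had 19.6, 102 and 40.8 against 593 to 666 (-3.84, adjusted p = 0.0064). Replicate 2 was the highest β-catenin KO library for all 3 of these genes.

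Sct, which encodes the hormone secretin, had the highest level of these 14, at 437, 4953 and 2046 against 12239 to 15336 (-3.06, adjusted p = 0.017, and -2.11 without replicate 1). Sorbs2, an actin-binding adaptor, had 344, 2550.2 and 1667 against 7656 to 9777 (-2.89, adjusted p = 0.031, and -2.03 without replicate 1). St8sia6, a sialyltransferase, had 134, 471 and 475 against 1921 to 3442 (-3.01, adjusted p = 0.0044, and -2.41 without replicate 1). The others were Psd2 (-3.86, and -2.92 without replicate 1), Htr3a, a serotonin-gated channel (-3.63), Napsa, an aspartic protease (-3.59), Fcgr2b, an inhibitory Fc receptor (-3.38), Rnase12 (-3.03, and -2.33 without replicate 1), Gm10522 (-3.33), Gm50405 (-3.32) and Tek. Of these 14, 7 were not called without replicate 1: Fcgr2b, Gm10522, Gm50405, Sct, Rnase12, Tek and Sorbs2.

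**Figure D4:**
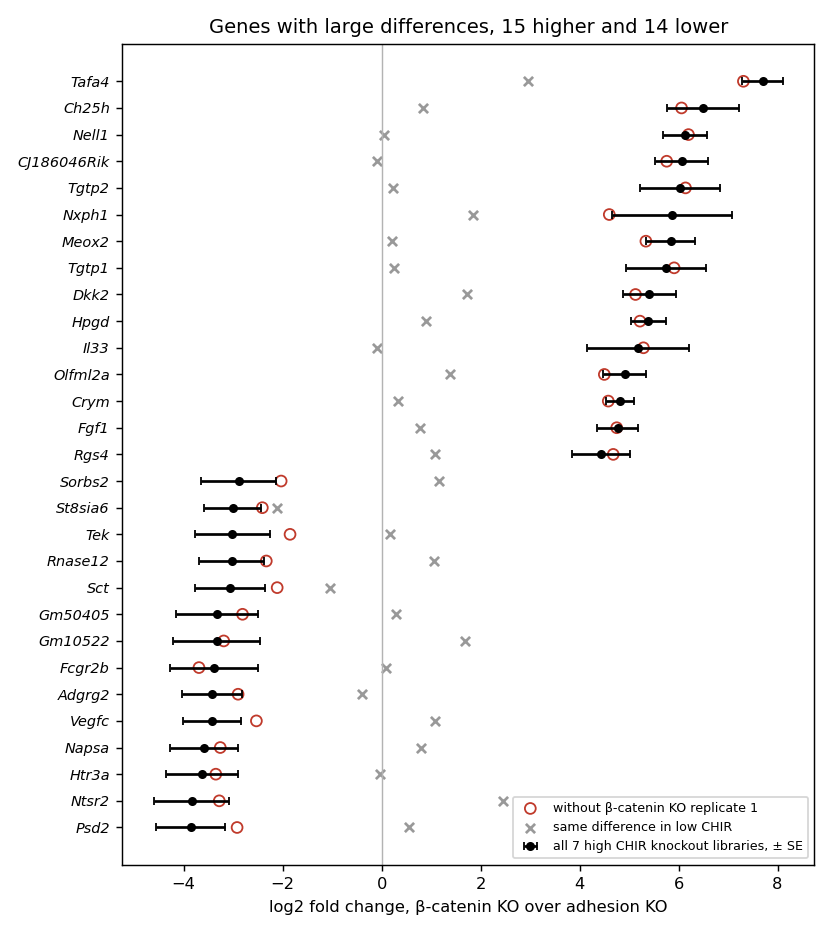
log2 fold change of β-catenin KO over adhesion KO for the 15 largest higher genes and 14 large lower genes in high CHIR, with the SE of the fit (filled points), the value without β-catenin KO replicate 1 (open circles) and the value in low CHIR (crosses). Ch25h lies at 6.49 in high and 0.83 in low CHIR, and Psd2 moves from -3.86 to -2.92 when replicate 1 is left out.

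In low CHIR the same contrast called 24 genes, all higher in β-catenin KO (0.144% of those tested), with 1731 at an unadjusted p under 0.05. The count was 157 with the date as a block, 104 by edgeR and 361 by DESeq2, and it rose to 102 when replicate 1 of the low CHIR β-catenin KO libraries was left out and fell to between 1 and 8 when any other low CHIR knockout library was. Of the 24, 11 were also called in high CHIR, 10 of them in the same direction. The genes below were named after their low CHIR values were seen. Npl, a sialic acid lyase, had 775, 1122 and 474 against 101 to 163 in low CHIR (log2 fold change 2.68, adjusted p = 0.0012) and 2830.4, 2423 and 2036 against 553 to 872 in high CHIR (1.84, adjusted p = 0.0011). Pgf, a placental growth factor, was higher by 2.27 in low and 2.50 in high CHIR. Maml2 was higher by 1.25 and 1.44. Tgfb2 differed by 1.07 in low CHIR, short of the threshold (adjusted p = 0.07), and by 1.20 in high CHIR.

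Kit, a receptor tyrosine kinase, was called in both doses with opposite signs. In low CHIR it had 344, 616 and 641 in β-catenin KO and 101 to 188 in adhesion KO (log2 fold change 1.79, adjusted p = 0.031). In high CHIR it had 960, 1391 and 788 against 2149 to 4585 (-1.80, adjusted p = 0.0023). Both pairs of ranges were apart, and the change between doses passed the test (-3.59, adjusted p = 0.00056).

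The difference between β-catenin KO and adhesion KO depended on the dose for 169 genes, 1.01% of those tested, of which 113 had a larger value in high CHIR (0.677%) and 56 a smaller one (0.336%). Of the 169, 153 were among the 962 called in high CHIR. With the date as a block 522 were called, and without replicate 1 of the high CHIR β-catenin KO libraries 86 were (60 larger and 26 smaller). On the self-renewal list 8 of the 12 tested genes passed this test, all with the larger value in high CHIR. Six2 had 1236, 969.6 and 773 in β-catenin KO in low CHIR and 1318 to 1468 in adhesion KO (log2 fold change -0.51), so its difference grew by 4.13 (adjusted p = 3.7e-05). Rdh10 grew by 4.45 and Bcl2 by 3.09.

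The largest dose dependence upward was that of Ntsr1, a neurotensin receptor, at 6.56 (adjusted p = 0.0003), followed by CJ186046Rik, Nell1, Tgtp2 and B3galt5, a galactosyltransferase. The largest downward among them was that of Serpinb7, a serine protease inhibitor, at -8.08 (adjusted p = 0.038). Serpinb7 was at 0 to 0.849 in adhesion KO in low CHIR and at 264 to 959.6 in high CHIR, while β-catenin KO had 0, 53 and 76.1 in low and 2.31, 33.2 and 139.6 in high CHIR. Ntsr2, Sv2b, a synaptic vesicle protein, Gap43, a growth cone protein, and Aldh1a3 followed, at -6.29, -4.94, -4.77 and -4.68. For all 5 of these genes the difference was above 0 in low CHIR and below 0 in high CHIR, though Gap43 was the one whose low CHIR difference passed (3.76, adjusted p = 0.015).

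**Figure D5:**
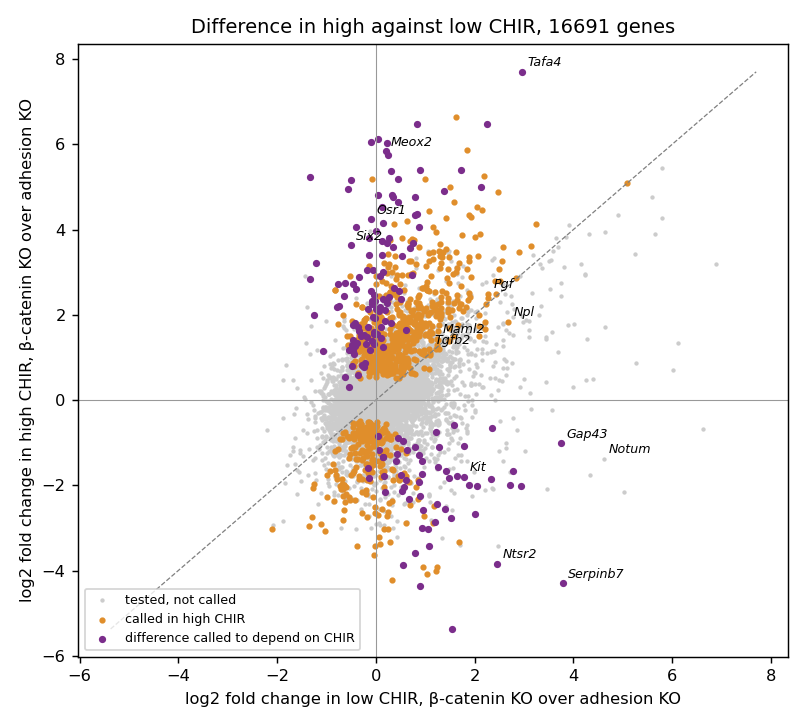
log2 fold change of β-catenin KO over adhesion KO in low CHIR (horizontal axis) and high CHIR (vertical axis) for the 16691 tested genes, with genes called in high CHIR in orange and genes whose difference was called to depend on the dose in purple; the dashed line marks equal differences. Six2 and Meox2 lie near 0 in low CHIR at -0.51 and 0.20 and at 3.63 and 5.84 in high CHIR, and Pgf lies near the line at 2.27 and 2.50.

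The α-catenin KO and QCKO libraries, joined by their labels, were also compared with each other. Between them no gene was called in high CHIR (limma), with 147 at an unadjusted p under 0.05 out of 16691. DESeq2 and the fit with the date as a block each called 1 gene, Ctnna1, the gene cut in one of the arms (log2 fold change -1.37 and -1.53), and limma gave it -1.37 with adjusted p = 0.071, and 0.045 without the low CHIR β-catenin KO replicate 1. Each arm had 2 libraries, and how large a difference this contrast could detect was not simulated. Taken one at a time, α-catenin KO gave 358 called genes against β-catenin KO (2.14% of those tested), 292 higher (1.75%) and 66 lower (0.395%) in β-catenin KO, and QCKO gave 520 (3.12%), 401 higher (2.4%) and 119 lower (0.713%). These contrasts share the β-catenin KO libraries, so they are not independent of each other.

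TCF/LEF factors bind short motifs, so the promoters of called genes were searched on both strands for the motifs CTTTGAA or CTTTGAT or CTTTGTT or CTTTGTA, in the 300 bases from 250 before to 50 after each RefSeq start (GRCm38.p6). Of the 626 called genes with a symbol, 446 had a window. A match was found in 13.5% of the 303 higher genes with a window, 19.6% of the 143 lower genes and 13.9% of the 2100 with a window among named genes that were tested and not called, against 18.9% of all 27025 genes in the table. Lower genes thus had a larger share than the named genes that were not called and a share close to that of all genes, while higher genes were near the first of these and below the second. Without β-catenin KO replicate 1, the share was 15.1% of 185 higher genes and 25.0% of 48 lower genes. Upstream matches were looked for in 46 of the genes selected by rule, which were the guide targets, called members of the self-renewal, induction and Wnt lists and the largest differences, and 29 of these had a window. Uncalled genes such as Axin2 and Lef1 and the other lists were not searched one by one. Matches in 5 genes are printed, which need not be all of them, with the motif in capitals, in the direction of the gene.
Sorbs2, chr8:45661797-45661861, plus strand: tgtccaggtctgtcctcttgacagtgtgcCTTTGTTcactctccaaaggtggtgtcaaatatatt
St8sia6, chr2:13793547-13793611, minus strand: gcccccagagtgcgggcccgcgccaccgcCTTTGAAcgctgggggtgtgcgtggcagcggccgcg
Tek, chr4:94739233-94739288, plus strand: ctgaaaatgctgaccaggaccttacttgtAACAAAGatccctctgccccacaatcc
Wnt5b, chr6:119449422-119449486, minus strand: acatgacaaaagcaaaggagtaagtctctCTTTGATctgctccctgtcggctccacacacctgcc
Tgtp1, chr11:48992256-48992320, minus strand: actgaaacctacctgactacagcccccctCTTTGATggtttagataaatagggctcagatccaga
The first 4 genes were lower and Tgtp1 was higher in β-catenin KO. All 5 stretches lie just upstream of a start. A match is a description of the letters, and binding was not measured here.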

How the data were processed

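cDNA made from RNA of sorted NPCs was sequenced in paired ends, and the submitters' processing notes name bcl2fastq, STAR, Subread featureCounts, Salmon and DESeq2, and the builds GRCm38, mm10 and GRCh38, with no role for each. Strand handling in the counting was not given in the sources used here, so overlapping and antisense genes cannot be told apart. The values used are signal, gene counts that the authors divided by a size factor per library and deposited as 1 table. In each library 100% of values were whole multiples of what 1 read is worth (tolerance 0.01 read), so reads were recovered for the count tests. The authors' comparison tables, deposited with log2 fold changes and p-values, were used for their gene symbols (4316 identifiers) and for nothing else.

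log2(normalized count + 1) was fitted in R 4.3.3 with limma 3.58.1 (lmFit, eBayes with trend), 1 mean for each of the 8 groups over all 20 libraries, on 16691 genes with a mean of at least 10, with Benjamini-Hochberg adjustment. The call rule was an adjusted p below 0.05 with a log2 fold change beyond 0.5 either way, on the log2(value + 1) scale, which understates changes of low genes. The adhesion KO arm was the mean of the α-catenin KO and QCKO means. edgeR 4.0.16 and DESeq2 1.42.0 were alternatives, beside other filters, pseudocounts, normalizations and library sets. On counts simulated for the high CHIR comparison (16643 genes), the fit found 37 of 100 genes changed by 1 and 87 of 100 changed by 2 on the log2 scale, with 8 unchanged genes called. The changed genes were drawn from genes with higher counts than the filter required. The simulation held no date effect and no library set apart from its group, so the rates need not hold for the real libraries.

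Dates in the labels pair libraries across groups. Deviations from the group means correlated at 0.127 to 0.288 between β-catenin KO and adhesion KO libraries of one date. Pairs of different dates gave -0.288 to 0.277. Between the adhesion arms, replicate 3 of both gave 0.0542, and so did α-catenin KO replicate 1 with QCKO replicate 2, of different dates. With 2 libraries to an adhesion arm, one deviation is the other with its sign turned. These correlations therefore cannot decide whether libraries of one date vary together. Named genes were the guide targets, up to 5 called members of each list in each direction, the 15 largest non-overlapping called genes each way with a mean of at least 100 (1 lower gene is not reported here), and the 5 largest dose-dependent genes each way. Uncalled list members, Six2, Cited1, Wt1, Eya1 and the genes named for low CHIR were chosen after their values were seen. The members and lists were chosen with earlier results of these data known.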

Additional observations from a re-analysis of the deposited data

Results flagged for a closer look

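Within the 4 adhesion KO libraries, 7 named genes had 1 library far from the other 3, by the share of the range that its gap takes on the log2 scale (past Dixon's 95% critical value, as chance gives for about 1 in 20 genes). α-catenin KO replicate 3 was the highest for Cdh3 (0.835) and Efnb1 (0.944) and the lowest for Wnt5b (0.891) and Rgs4 (0.842). α-catenin KO replicate 1 was the highest for Id2 (0.867), Axl (0.842) and Il33 (0.88).

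The difference between β-catenin KO and adhesion KO depended on the CHIR dose, by the interaction term, for 44 of the 101 selected genes. Over all tested genes the share was 1.01%. Some of the 101 were selected by this same test and many for their high CHIR difference, so the count reflects the selection. Values are given here as the high CHIR minus the low CHIR log2 fold change. Progenitor genes had positive values: Meox2 5.64, Crym 4.50, Osr1 4.34, Six2 4.13, Foxc2 3.98, Tmem100 3.46, Wt1 2.09 and Eya1 1.94. Signalling genes with positive values were Rdh10 4.45, Fgf1 3.99, Dkk2 3.68, Fzd4 3.23, Gas1 2.38, Robo2 2.36, Etv1 2.26, Hes1 1.77, Efnb1 1.45 and Tcf7l1 1.35. Matrix, mesenchymal and survival genes were Col9a1 4.20, Tnc 3.27, Bcl2 3.09, Nid2 3.02, Zeb1 2.65 and Itga9 2.22. Further genes were Ntsr1 6.56, CJ186046Rik 6.15, Nell1 6.09, Tgtp2 5.79, B3galt5 5.67, Ch25h 5.66, Tgtp1 5.51, Tafa4 4.74, Hpgd 4.49 and Olfml2a 3.52. Negative values were those of Serpinb7 -8.08, Ntsr2 -6.29, Sv2b -4.94, Gap43 -4.77, Aldh1a3 -4.68, Vegfc -4.50, Psd2 -4.41, Napsa -4.37, Rnase12 -4.08 and Irf7 -2.98. Kit, named for its low CHIR values after they were seen, had -3.59.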

How the results depend on the processing

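The count of genes between β-catenin KO and adhesion KO in high CHIR, 962, stayed within 1.5 times under both other filters, both pseudocounts, the higher fold threshold, quantile normalization, edgeR and the fit of the 7 libraries alone. It moved to 1798 with the date as a replicate block, 1537 by DESeq2 and 575 in the fit of the 10 high CHIR libraries, and leaving out 1 of the 7 compared libraries gave 496 to 941, whereas leaving out 1 low CHIR knockout library, which enters through the shared spread, gave 827 to 1259. The lowest of these was without β-catenin KO replicate 1, and leaving out β-catenin KO replicate 3 (630), α-catenin KO replicate 3 (533) and QCKO replicates 2 (605) and 3 (541) also moved it. The low CHIR count of 24 moved to 157 with the block, 104 by edgeR and 361 by DESeq2, to 1 to 102 without 1 library, and to 220 without both β-catenin KO libraries of replicate 1, a setting chosen after seeing the data. The dose dependence count of 169 moved to 522 with the block and 407 by DESeq2, and to 74 to 248 without 1 library, and it fell the most without the low CHIR β-catenin KO replicates 2 (74) and 3 (77), QCKO replicate 3 (85), and the high CHIR β-catenin KO replicates 1 (86) and 3 (90), α-catenin KO replicate 3 (92) and QCKO replicate 3 (94), then without the low CHIR QCKO replicate 2 (99) and α-catenin KO replicates 3 (100) and 1 (101). Between α-catenin KO and QCKO, 0 moved to 1, Ctnna1, with the block, by DESeq2 and without the low CHIR β-catenin KO replicate 1. Against β-catenin KO, the α-catenin KO count of 358 moved to 1243 with the block, 767 by DESeq2, 168 in the 10 libraries and 93 to 420 without 1 library. The QCKO count of 520 moved to 935, 977, 260 and 124 to 583. The counts of 358 and 520 each moved without any 1 of their own libraries other than β-catenin KO replicate 2. Fewer libraries leave fewer residual degrees of freedom, and the cause of the other moves was not tested. Of 80 called genes that were selected, 54 were called under every alternative and 24 lost the call without β-catenin KO replicate 1. Of 101 selected genes, 5 changed sign. Without β-catenin KO replicate 1, and without both of its libraries, Axin2 turned to 0.50, Notum to 0.77, Sp5 to 0.60 and Krt23 to 1.69. Over the fits without 1 library, Axin2 ran from -2.12 to 0.50, Notum from -2.57 to 0.77, Sp5 from -2.09 to 0.60, Krt23 from -1.97 to 1.69 and Fzd10 from -0.59 to 2.32, with Fzd10 at -0.22 without β-catenin KO replicate 2. Krt23 was at 1.03 by edgeR and 1.02 by DESeq2, and Notum at 0.18 and 0.17. Where 1 library is left in an arm, it is assumed to vary like the other groups. With 18124772 to 24679361 reads a library, genes with a mean under 10 normalized counts were not tested.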
